A study of Mus musculus with 11 samples.

Results

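The miR-200 family was examined through 8 mature arms: mmu-miR-200a-3p, mmu-miR-200b-3p, mmu-miR-200c-3p, mmu-miR-141-3p, mmu-miR-429-3p, mmu-miR-200a-5p, mmu-miR-200b-5p and mmu-miR-429-5p, written below without the prefix for mouse. They were taken by name from a table of 2304 small RNAs (1592 mature miRNAs and 712 endogenous siRNAs) counted in 11 mouse libraries. The study asked how loss of the miRNA-processing enzymes in the male germ line alters the small RNAs of sperm and of the embryos made with them. Small RNA came from the cauda epididymal sperm of adult C57BL/6 males with a Cre-loxP germline conditional knockout (cKO) of Dicer (2 libraries), with a germline cKO of Drosha (3 libraries), and of wild-type (WT) males (2 libraries). The sources used here do not name the driver of the Cre. Nor do they state that replicates were taken from different males, so a p-value covers the spread between these samples alone, which may be technical. Single libraries came from 2PN (pronuclear) embryos made by injecting sperm of Dicer cKO, Drosha cKO or WT males into oocytes, and from oocytes of superovulated WT females.

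The family is transcribed from a pair of gene clusters and is best known as a marker and guardian of epithelial cells: its members repress the transcription factors Zeb1 and Zeb2, which in turn repress the family and drive the change of epithelial into mesenchymal cells. Like most miRNAs, its members are cut from a primary transcript by Drosha in the nucleus and then by Dicer in the cytoplasm, and a mature miRNA finds its targets mainly through its seed, bases 2 to 8 from the 5′ end. The epididymis, in which sperm mature and from whose cauda they were collected here, is lined by epithelium.

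All 8 members had a mature sequence in RefSeq (GRCm38.p6), and the sequences are shown because they split the family into seed groups and because its members are so alike that reads could be shared among them. The seed is in capitals and each sequence runs 5′ to 3′.
miR-200c-3p: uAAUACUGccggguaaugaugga
miR-200b-3p: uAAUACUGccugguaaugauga
miR-429-3p: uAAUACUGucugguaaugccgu
miR-200a-3p: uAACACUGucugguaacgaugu
miR-141-3p: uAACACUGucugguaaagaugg
miR-200b-5p: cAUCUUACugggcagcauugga
miR-200a-5p: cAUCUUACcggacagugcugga
miR-429-5p: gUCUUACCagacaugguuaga
The 3p arms of miR-200c, miR-200b and miR-429 share the seed AAUACUG, and those of miR-200a and miR-141 share AACACUG, the change being U4C, with positions counted from 1 at the 5′ end. Among 1679 mature mouse miRNAs in the RefSeq table no other miRNA carried either seed. The 5p arms of miR-200b and miR-200a share AUCUUAC, and miR-429-5p stands alone with UCUUACC. miR-200c-3p and miR-200b-3p differ at 2 of the 22 bases compared (G11U and G22A), and miR-200a-3p and miR-141-3p also at 2 (C17A and U22G), while any other pair of 3p arms differs at 4 or 5. The sources used here do not say how reads matching more than 1 member were assigned, so the split within each of these close pairs is less certain than their sum.

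The 5 hairpins lie in a pair of clusters on the minus strand of chromosomes 4 and 6 (GRCm38.p6). Those of miR-429 (chr4:156053905-156053987), miR-200a (chr4:156054896-156054985) and miR-200b (chr4:156055681-156055750) lie within the annotated span of the long non-coding RNA gene Gm13648. Those of miR-141 (chr6:124717914-124717985) and miR-200c (chr6:124718322-124718390) overlap no other annotated gene and lie between Phb2 and Ptpn6. Both seeds of the 3p arms thus have members in both clusters, while all 3 of the 5p arms come from chromosome 4. The 5p arms of the chromosome 6 hairpins are listed in the count table but are not among the 8 members; over the 7 sperm libraries miR-200c-5p had 0 to 9 reads and miR-141-5p 0 to 3.

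Listed reads numbered 122989 and 108141 in the Dicer cKO sperm libraries, 100934, 12003 and 15921 in the Drosha cKO sperm libraries, and 73377 and 278890 in the WT sperm libraries. The 2PN libraries from Dicer cKO, Drosha cKO and WT sperm held 2951, 8967 and 3243 listed reads, and the oocyte library 5530. Levels are given as CPM, counts scaled to the same total of listed reads in every library, or, where stated, as RPM from the authors' deposited table, whose divisor per library is larger. Listed reads were 4.43% and 7.01% of that divisor in Dicer cKO sperm, 2.70%, 2.91% and 2.11% in Drosha cKO sperm, and 2.16% and 10.1% in WT sperm, so the 2 scales order the libraries differently. Members were not divided by length, since their mature sequences are 21 to 23 bases long.

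In cKO sperm the family made up a far larger share of the listed small RNAs than in WT sperm. The 8 members together took 13.1% and 16.2% of listed reads in Dicer cKO sperm, 11.5%, 14.3% and 11.6% in Drosha cKO sperm, and 1.59% and 1.82% in WT sperm. The means were 14.6% ± 2.16 (SD, n = 2), 12.5% ± 1.58 (n = 3) and 1.71% ± 0.165 (n = 2), and neither cKO group overlapped WT. On the RPM scale the family summed to 5796 and 11327 in Dicer cKO sperm, 3105, 4153 and 2442 in Drosha cKO sperm, and 343 and 1832 in WT sperm. Neither cKO group overlapped WT on that scale either, but the WT libraries lay farther apart from each other than on the CPM scale. miR-200c-3p ranked 2 and 1 among all listed features of the Dicer cKO libraries, 2, 1 and 1 in the Drosha cKO libraries, and 30 and 24 in the WT libraries. The values are relative to other small RNAs, and in bulk samples fewer cells of a type and less RNA per cell cannot be told apart.

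**Figure D1:**
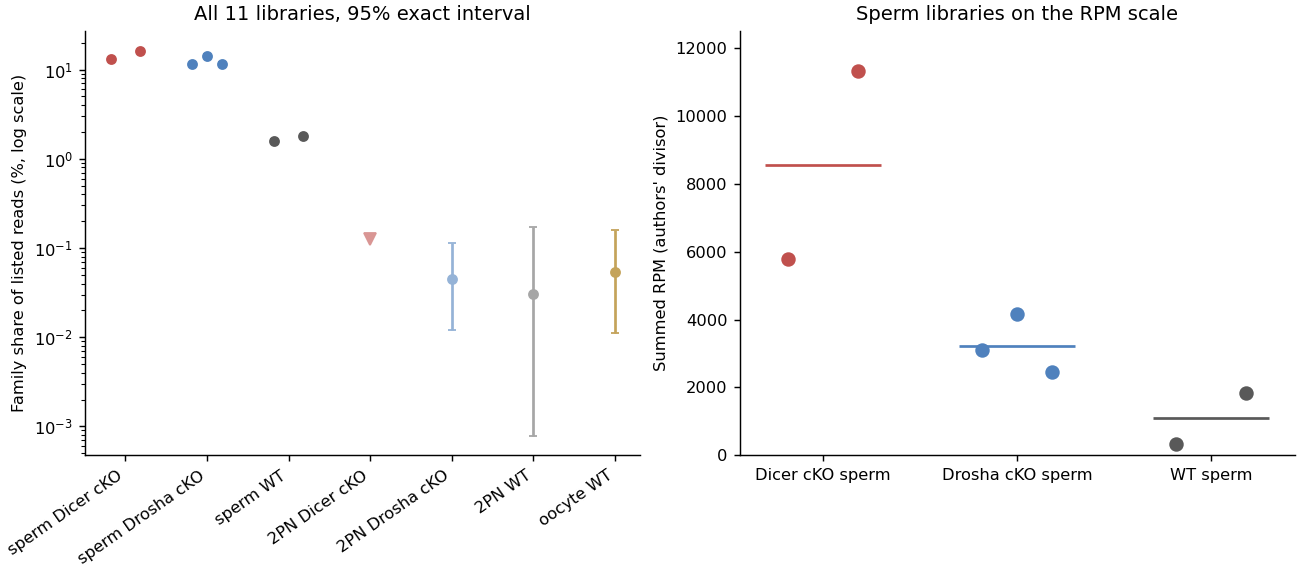
Left, summed share of listed reads of the 8 members (%, log axis) in each of the 11 libraries, with 95% exact intervals; the triangle is the upper bound of a library with no family read. Right, summed RPM in the 7 sperm libraries, with the group mean as a line. All cKO sperm libraries lie between 11.5% and 16.2%, WT sperm at 1.59% and 1.82%, and the oocyte and 2PN libraries at 0.0542% or less.

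The rise was shared by all 5 of the 3p arms, which are the abundant strands. miR-200c-3p, the leading member, stood at 62599 and 64545 CPM in Dicer cKO sperm, 66291, 59735 and 47045 CPM in Drosha cKO sperm, and 8504 and 8000 CPM in WT sperm. Its chromosome 6 partner miR-141-3p stood at 11595 and 17708 CPM in Dicer cKO sperm, 7936, 7831 and 8856 CPM in Drosha cKO sperm, and 1118 and 1703 CPM in WT sperm. In both, every cKO library lay above every WT library, and for miR-141-3p the Dicer cKO libraries also lay above all Drosha cKO libraries.

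The 3p arms of the chromosome 4 cluster also lay higher in cKO than in WT sperm. miR-200b-3p had 25035 and 38589 CPM in Dicer cKO sperm, 21252, 30492 and 26380 CPM in Drosha cKO sperm, and 2480 and 3919 CPM in WT sperm. miR-200a-3p had 21612 and 29406 CPM in Dicer cKO sperm, 12256, 25994 and 19157 CPM in Drosha cKO sperm, and 1704 and 3037 CPM in WT sperm. miR-429-3p had 9269 and 10227 CPM in Dicer cKO sperm, 6668, 15080 and 8982 CPM in Drosha cKO sperm, and 1908 and 1424 CPM in WT sperm. None of these overlapped between cKO and WT sperm, and all overlapped between the cKO genotypes. Counted over the family in CPM, 8 of 8 members lay higher in every Dicer cKO than in every WT library, where 46.3% of all tested features did, and 7 of 8 in every Drosha cKO library, where 42.1% did. In RPM these counts were 8, beside 43.6%, and 6, beside 24.5%. The 5p arms are among the tested features only through their levels in the cKO groups, so they add no support to these counts. Only the 3p arms can be set beside these percentages. Each 3p arm lay higher in every cKO than in every WT library, in CPM and in RPM. Within a library miR-200c-3p was the highest member and miR-200b-3p the next in all 7 sperm libraries. Of the other 3p arms, miR-200a-3p came next except in WT replicate 1, where miR-429-3p did, and miR-429-3p and miR-141-3p changed places between libraries.

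**Figure D2:**
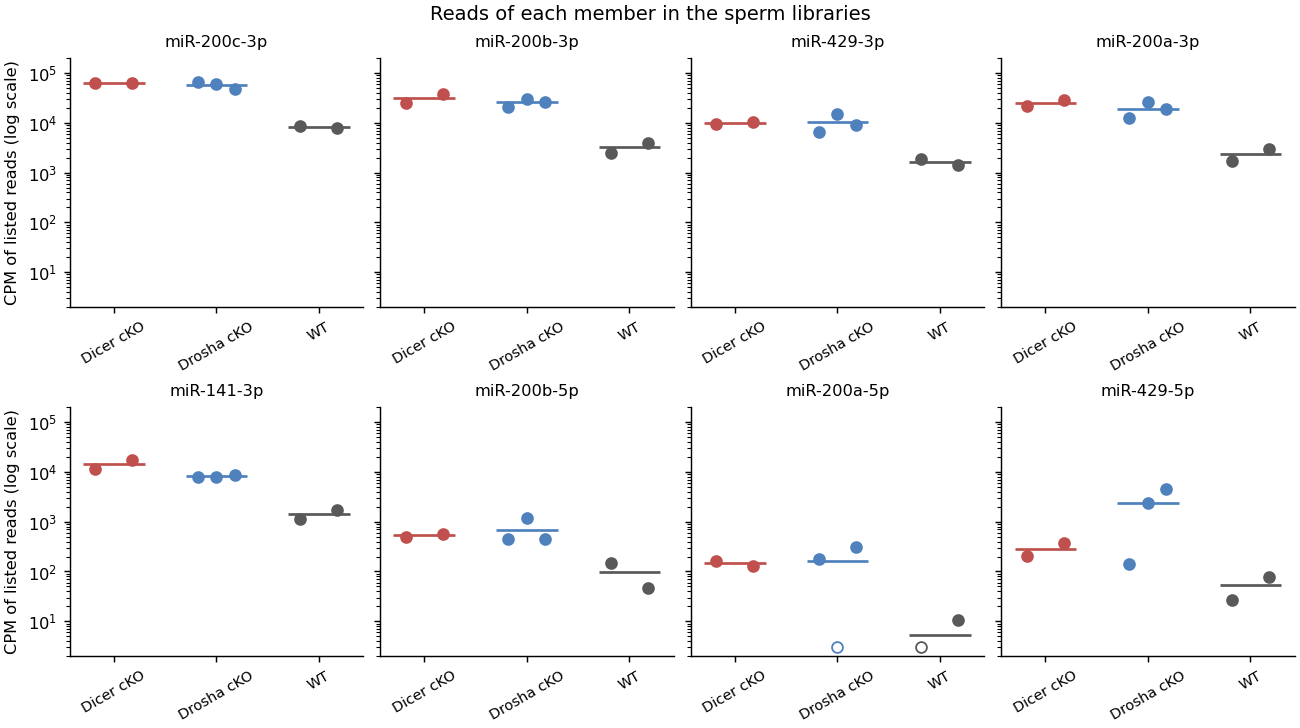
CPM of listed reads (log axis) of each member in the sperm libraries, 1 point per library and a line at the group mean; open points at the foot of the miR-200a-5p panel are libraries with 0 reads. The 3p arms lie higher in every cKO library than in either WT library, and miR-429-5p spreads from 139 to 4522 CPM among Drosha cKO libraries.

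The first comparison set Dicer cKO against WT sperm in a fit over 335 features that passed a filter on low counts (edgeR quasi-likelihood test, Benjamini-Hochberg adjustment over all 335). All 5 of the 3p arms rose, as did 2 of the 3 5p arms, where 16.1% of all tested features were called higher, 31% lower and 47.2% in either direction. The members' median log2 change was 2.37, and that of the 3p arms 2.50, beside 0.03 over all tested features. All 8 members passed the filter, but the 3p arms did so in WT sperm alone, whereas the 5p arms did not reach 99.1 CPM in both WT libraries and passed through the cKO groups, so a count over the 5p arms is no support. Changes of the 3p arms ran from 1.89 for miR-429-3p (SE 0.519, edgeR adjusted p = 0.007) to 2.59 for miR-200a-3p (SE 0.576, edgeR adjusted p = 0.0017). miR-200c-3p, miR-200b-3p, miR-200a-3p and miR-141-3p kept their calls under all 16 alternatives in the processing, and miR-429-3p lost its call in 2 of them (edgeR adjusted p = 0.105 without Dicer cKO replicate 1). The members called fell to 4 without Dicer cKO replicate 1 and to 4 without Dicer cKO replicate 2.

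In the second comparison, Drosha cKO against WT sperm, the 3p arms rose again, where 22.1% of all tested features were called higher, 33.1% lower and 55.2% in either direction. All 5 of the 3p arms passed the edgeR test, with a median log2 change of 1.84 beside 0.05 over all tested features. The 5p arms passed it too, giving 8 of 8 members and a median of 1.92. Because the 5p arms passed the filter through the cKO groups, they add no support to this count and median. miR-200b-3p led the 3p arms with 1.94 (SE 0.497, edgeR adjusted p = 0.00423), before miR-200a-3p with 1.90 (SE 0.534, edgeR adjusted p = 0.00747). For miR-200c-3p the log2 change was 1.84 (SE 0.415, edgeR adjusted p = 0.00181), for miR-429-3p 1.68 (SE 0.490, edgeR adjusted p = 0.00914) and for miR-141-3p 1.47 (SE 0.510, edgeR adjusted p = 0.0233). The number called depended on the scale and on single libraries: it was 1 with the authors' divisor as library size, 1 without a low-count filter, 1 without WT replicate 1, 1 without Drosha cKO replicates 2 and 3, and 4 with a filter at 10 CPM in 2 libraries. With limma on log2(RPM + 1) it was 3, and on log2(RPM + 0.1) it was 1. In every one of these fits the log2 changes of all 8 members stayed above 0, and the lowest for a 3p arm was 0.47, for miR-141-3p without WT replicate 1. Scaling also moved all features together: with library totals alone the median of all tested features shifted by 0.57 in Dicer cKO and 0.99 in Drosha cKO sperm, and with the authors' divisor by 0.85 and −0.09. Calls were 54 higher and 104 lower for Dicer cKO and 74 higher and 111 lower for Drosha cKO, but 101 and 91, and 134 and 89, with library totals, and 23 and 101 in Drosha cKO sperm with the authors' divisor. The median of all 8 members stayed above that of all features under each scaling, by 2.13 to 2.52 in Dicer cKO and by 1.63 to 1.90 in Drosha cKO sperm. This median takes in the 5p arms, so it adds no support either. With the authors' divisor the 3p arms alone changed by 2.61 to 3.17 in Dicer cKO sperm, beside a median of 0.88 over all features. In Drosha cKO sperm they changed by 1.10 to 1.61, beside −0.04. Because both comparisons use the same WT libraries, their likeness is not independent evidence.

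**Figure D3:**
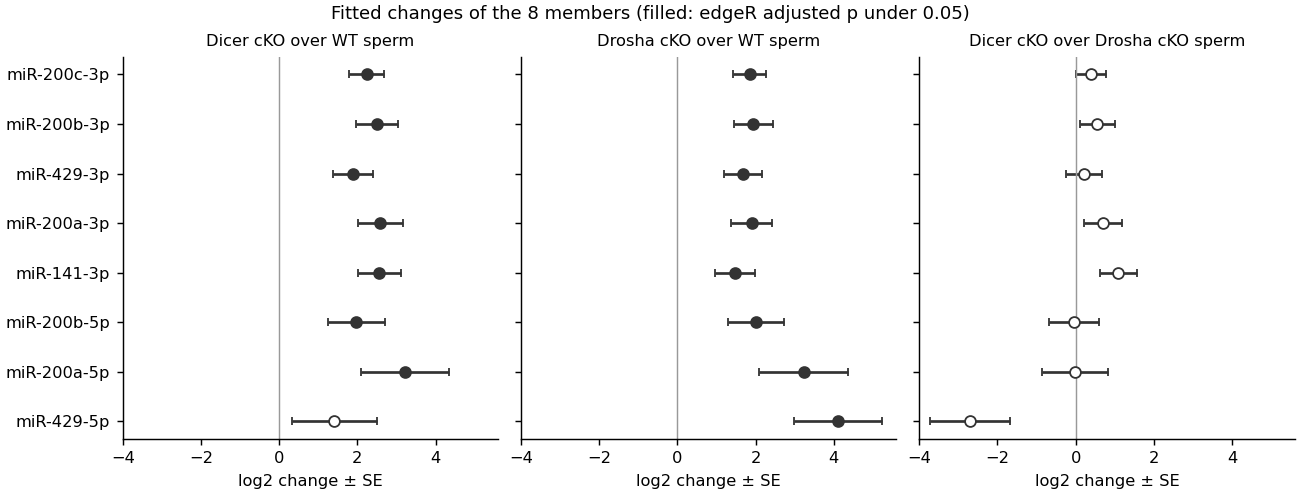
Fitted log2 change with its standard error for each member in the 3 sperm comparisons; filled points passed the edgeR test at an adjusted p under 0.05. The 3p arms lie between 1.47 and 2.59 against WT sperm and between 0.21 and 1.10 between the cKO genotypes.

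The third comparison, Dicer cKO against Drosha cKO sperm, found no called member. By edgeR 0 of 8 members and 0% of the 335 tested features passed; at an unadjusted p under 0.05 there were 2 members, beside 19.4% of all tested features. DESeq2 and limma called 0 members as well, and edgeR on the 2 groups alone called 1, miR-141-3p (adjusted p = 0.0463). miR-141-3p had the highest change, 1.10 (SE 0.477, edgeR adjusted p = 0.232), with an interval of 2 standard errors from 0.14 to 2.05. For miR-200c-3p the change was 0.39 (SE 0.384, edgeR adjusted p = 0.603), with an interval from −0.38 to 1.16, and for miR-200b-3p it was 0.56, with an interval from −0.36 to 1.47. These intervals leave room for changes beyond 1 on the log2 scale in miR-200c-3p and miR-200b-3p, so the data do not show that the genotypes are alike. In CPM 1 member, miR-141-3p, lay higher in every Dicer cKO than in every Drosha cKO library, where 15.2% of all tested features did. On the RPM scale 5 members lay higher in every Dicer cKO than in every Drosha cKO library, where 44.5% of all tested features did.

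The 3p arms kept similar proportions within the family, whereas the share of miR-429-5p in family reads ran from 0.120% to 3.91%. miR-200c-3p held 47.8% and 40.0% of family reads in Dicer cKO sperm, 57.6%, 41.9% and 40.7% in Drosha cKO sperm, and 53.5% and 43.9% in WT sperm. The groups overlapped. The 3p arms with the seed AAUACUG held 74.5% and 70.6% of 3p reads in Dicer cKO sperm, 82.4%, 75.7% and 74.6% in Drosha cKO sperm, and 82.0% and 73.8% in WT sperm, with the rest carrying AACACUG.

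The ratio of the chromosome 6 to the chromosome 4 cluster, over 3p arms and free of any scaling between libraries, was 1.33 and 1.05 in Dicer cKO sperm, 1.85, 0.944 and 1.03 in Drosha cKO sperm, and 1.58 and 1.16 in WT sperm. The highest value of each group belonged to its replicate 1, and the groups overlapped. The log2 ratio differed between cKO and WT sperm by −0.20 for Dicer and −0.16 for Drosha, less than the SD of 0.317 between the WT libraries. Leaving out 1 library moved these differences between −0.42 and 0.03 for Dicer, the 0.03 without WT replicate 1, and between −0.46 and 0.07 for Drosha, with values above 0 without WT replicate 1 (0.07) and without Drosha cKO replicate 2 (0.03), so they have no settled direction. Across the 7 sperm libraries the log2 CPM of the other 3p arms had Pearson correlations of 0.948 to 0.970 with that of miR-200c-3p. The 5p arms of miR-200b, miR-200a and miR-429 had correlations of 0.901, 0.629 and 0.610 with it. The points share their libraries, depth and group differences, so these are descriptions.

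The 5p arms were minor strands, and miR-429-5p departed from the others. The hairpin of miR-429 is shown because its arms changed balance between libraries, with both mature arms in capitals, the 5p arm first.
Mir429 hairpin: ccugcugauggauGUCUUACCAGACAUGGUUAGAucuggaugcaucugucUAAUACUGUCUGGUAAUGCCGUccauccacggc
miR-429-5p had 203.3 and 370 CPM in Dicer cKO sperm (25 and 40 reads), 139, 2416 and 4522 CPM in Drosha cKO sperm (14, 29 and 72 reads), and 27.3 and 78.9 CPM in WT sperm (2 and 22 reads). Drosha cKO replicates 2 and 3 stood apart from the other 5 libraries. The 5p arm made up 13.8% (95% exact interval 9.45 to 19.2) and 33.5% (27.2 to 40.2) of miR-429 reads in these 2 libraries. In the other sperm libraries it made up 2.15% and 3.49% in Dicer cKO, 2.04% in Drosha cKO replicate 1, and 1.41% and 5.25% in WT. In the fit miR-429-5p changed by 4.10 in Drosha cKO against WT sperm (SE 1.127, edgeR adjusted p = 0.00654). Without Drosha cKO replicates 2 and 3 the change was 0.02 (edgeR adjusted p = 0.989). In Dicer cKO against WT sperm the log2 change was 1.40 (SE 1.086, edgeR adjusted p = 0.309), and in Dicer cKO against Drosha cKO sperm it was −2.70 (SE 1.028, edgeR adjusted p = 0.192); neither was called. Fitted on the Dicer cKO and WT libraries alone, the change in Dicer cKO sperm was 1.95 and was called (edgeR adjusted p = 0.04). Relative to Drosha cKO replicate 1, miR-429-5p was 4.03 higher on the log2(CPM + 10) scale in replicate 2, rank 2 of the 335 tested features, and 4.93 higher in replicate 3, rank 1. Drosha cKO replicates 2 and 3 are also the sperm libraries with the fewest listed reads; the part of depth in this result was not tested.

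In Drosha cKO replicates 2 and 3 the 5p arm held 3.68% and 1.64% of miR-200b reads, and 0% and 1.61% of miR-200a reads. miR-200b-5p had 496 and 564 CPM in Dicer cKO sperm, 456, 1166 and 440 CPM in Drosha cKO sperm, and 150 and 46.6 CPM in WT sperm. It changed by 1.97 in Dicer cKO sperm (SE 0.734, edgeR adjusted p = 0.0364) and by 2.01 in Drosha cKO sperm (SE 0.720, edgeR adjusted p = 0.027), and these calls were lost in 8 of 16 and 11 of 17 alternatives. Its share of miR-200b reads ran from 1.18% in WT replicate 2 to 5.70% in WT replicate 1, with all cKO libraries between. miR-200a-5p had 20 and 14 reads in Dicer cKO sperm, 18, 0 and 5 in Drosha cKO sperm, and 0 and 3 in WT sperm. Pooled over libraries, its share of listed reads was 17.3 times that of WT sperm in Dicer cKO sperm (95% counting interval 5.43 to 87.9) and 21.0 times in Drosha cKO sperm (6.33 to 109). These intervals cover counting error only, and the edgeR calls of miR-200a-5p (adjusted p = 0.0265 and 0.0243) were lost in 6 of 16 and 9 of 17 alternatives.

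**Figure D4:**
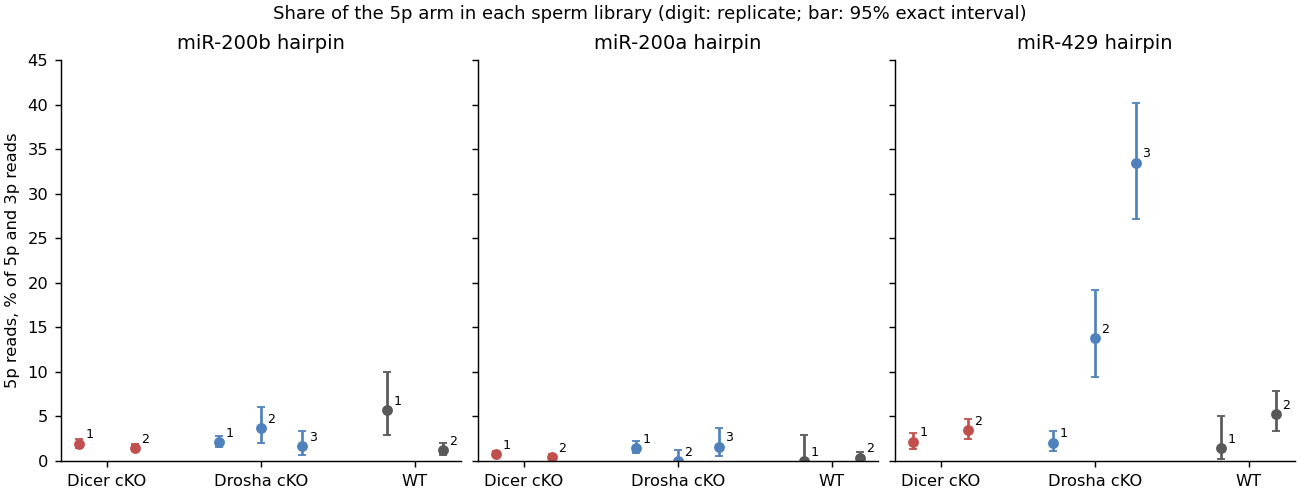
Reads of the 5p arm as a percentage of the reads of both arms, for the 3 chromosome 4 hairpins, in each sperm library (replicate number beside the point) with its 95% exact interval. miR-429-5p reaches 13.8% and 33.5% in Drosha cKO replicates 2 and 3, and all other points lie at or below 5.70%.

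The summed shares of listed reads of miRNAs that mark somatic cells were higher in cKO than in WT sperm, as the family's was, while that of germ cell miRNAs was lower. On the RPM scale the Drosha cKO libraries overlapped WT sperm in 2 of these lists: stromal miRNAs summed to 630, 332 and 326 RPM in Drosha cKO sperm and to 186 and 352 RPM in WT sperm, and other epithelial miRNAs to 469, 436 and 268 RPM in Drosha cKO sperm and to 160 and 355 RPM in WT sperm. The miR-34 and miR-449 group, typical of spermatogenic and of multiciliated cells and itself dependent on Drosha and Dicer, summed to 0.712% and 0.718% of listed reads in Dicer cKO sperm, 2.48%, 1.46% and 1.98% in Drosha cKO sperm, and 18.1% and 16.2% in WT sperm. All 5 tested members of its 7 fell in each cKO group, where 31% of tested features were called lower in Dicer cKO and 33.1% in Drosha cKO sperm. Their median log2 change was −5.31 in Dicer cKO and −3.91 in Drosha cKO sperm. In Dicer cKO sperm miR-34b-5p, miR-34c-5p and miR-34b-3p changed by −5.13, −5.31 and −5.62 on the log2 scale. In Drosha cKO sperm they changed by −4.18, −4.19 and −3.65 (highest edgeR adjusted p over both groups = 2.37e-05).

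Blood cell miRNAs summed to 5.17% and 5.16% of listed reads in Dicer cKO sperm, 2.26%, 2.27% and 2.56% in Drosha cKO sperm, and 0.542% and 0.527% in WT sperm. Of 8 tested, 5 rose and 0 fell in Dicer cKO sperm (median 2.55), and 4 rose and 1 fell in Drosha cKO sperm (median 1.72), where 16.1% and 22.1% of all tested features were called higher in Dicer cKO and Drosha cKO sperm. The 1 that fell was miR-142-5p (log2 change −2.68, edgeR adjusted p = 0.0277). The red cell miRNA miR-451a changed by 3.07 (SE 0.496, edgeR adjusted p = 0.000239) in Dicer cKO and by 1.41 (SE 0.442, edgeR adjusted p = 0.013) in Drosha cKO sperm. Its neighbour miR-144-3p changed by 2.86 and 2.24 in the same order. The leukocyte miRNAs were mixed. miR-150-5p rose by 4.01 in Dicer cKO (edgeR adjusted p = 0.000354) and by 2.69 in Drosha cKO sperm (edgeR adjusted p = 0.0026). miR-223-3p rose by 2.73 (edgeR adjusted p = 0.00195) and 2.01 (edgeR adjusted p = 0.00947) in the same order. Neither miR-155-5p, with 2.36 and 2.03, nor miR-142-3p, with 1.13 and −0.79, was called in either group. Of the 9 listed blood cell miRNAs, miR-142a-5p had 0 reads in every sperm library and miR-155-5p in Drosha cKO replicate 3; the others were detected in all.

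Stromal and smooth muscle miRNAs summed to 2.79% and 1.99% in Dicer cKO sperm, 2.34%, 1.14% and 1.55% in Drosha cKO sperm, and 0.864% and 0.350% in WT sperm. Of 7 tested, 2 rose and 0 fell in Dicer cKO sperm (median 1.01), and 1 rose and 0 fell in Drosha cKO sperm (median 0.65). Of all tested features 16.1% were called higher in Dicer cKO and 22.1% in Drosha cKO sperm. miR-145a-5p of smooth muscle changed by 1.90 (SE 0.587, edgeR adjusted p = 0.0142) in Dicer cKO sperm. In Drosha cKO sperm its value was 0.77, short of the threshold (SE 0.533, edgeR adjusted p = 0.232). miR-143-3p was likewise called in Dicer cKO (1.58, edgeR adjusted p = 0.0369) but not in Drosha cKO sperm (0.91, edgeR adjusted p = 0.169). miR-199a-3p, with 0.77 and −0.02, was called in neither (edgeR adjusted p = 0.266 and 0.971). Of the 9 listed stromal miRNAs, miR-145a-3p had 0 reads in both WT libraries and the 3 Drosha cKO libraries, and miR-133a-3p in Drosha cKO replicates 2 and 3.

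Epithelial miRNAs outside the family were called in both directions. They summed to 1.62% and 1.08% of listed reads in Dicer cKO sperm, between 1.27% and 1.74% in the Drosha cKO libraries, and 0.744% and 0.353% in WT sperm. Of 9 tested, 2 rose and 1 fell in Dicer cKO sperm (median 1.37), and 5 rose and 2 fell in Drosha cKO sperm (median 1.36). Of all tested features 16.1% were called higher and 31% lower for Dicer cKO, and 22.1% higher and 33.1% lower for Drosha cKO, so the Dicer cKO counts are near or below the background. miR-375-3p, an endocrine and epithelial miRNA, fell in both, by 3.91 in Dicer cKO (SE 0.953, edgeR adjusted p = 0.0029) and by 3.36 in Drosha cKO sperm (SE 0.821, edgeR adjusted p = 0.00316). miR-194-5p fell by 3.33 in Drosha cKO sperm (edgeR adjusted p = 0.00304), and in Dicer cKO sperm its value of −1.50 was not called. miR-31-5p rose by 1.37 in Dicer cKO (edgeR adjusted p = 0.0459) and by 1.36 in Drosha cKO sperm (edgeR adjusted p = 0.0329), while miR-182-5p, with 1.46 and 1.45, was called in Drosha cKO sperm alone (edgeR adjusted p = 0.0658 and 0.0486). miR-205-5p of basal and stratified epithelia changed by 2.59 (SE 0.603, edgeR adjusted p = 0.00211) in Dicer cKO and by 2.14 (SE 0.569, edgeR adjusted p = 0.00565) in Drosha cKO sperm. miR-203-3p, also of stratified epithelia, was called in neither, with 1.42 and 0.97 (edgeR adjusted p = 0.112 and 0.225). Nor was miR-192-5p, with −1.28 and 0.11 (edgeR adjusted p = 0.16 and 0.901). Of the 10 listed, miR-215-5p had 0 reads in all sperm libraries except WT replicate 2, and miR-375-3p and miR-194-5p in Drosha cKO replicate 2. The family held 8.10 and 15.0 times as many reads as these miRNAs in Dicer cKO sperm, 6.62, 9.52 and 9.12 times in Drosha cKO sperm, and 2.14 and 5.16 times in WT sperm. That ratio was higher in all 5 cKO libraries than in either WT library, and does not depend on scaling between libraries. It does depend on miR-375-3p, which held 227 of 546 and 262 of 984 list reads in the WT libraries. In Drosha cKO replicate 1 it held 57 of 1755. With miR-375-3p left out of the list, the ratio in WT replicate 2 lies above that in Drosha cKO replicate 1, so the groups overlap. The ratio to blood cell miRNAs was 2.54 and 3.13 in Dicer cKO sperm, 5.10, 6.27 and 4.53 in Drosha cKO sperm, and 2.93 and 3.45 in WT sperm, so Dicer cKO overlapped WT. The ratio to stromal miRNAs was 4.69 and 8.13 in Dicer cKO sperm, 4.93, 12.5 and 7.49 in Drosha cKO sperm, and 1.84 and 5.21 in WT sperm, where both cKO groups overlapped WT. The summed shares of the epithelial, blood and stromal lists thus stood higher in the same libraries as the family's, though not every miRNA of each list did, and their part in its change was not tested.

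**Figure D5:**
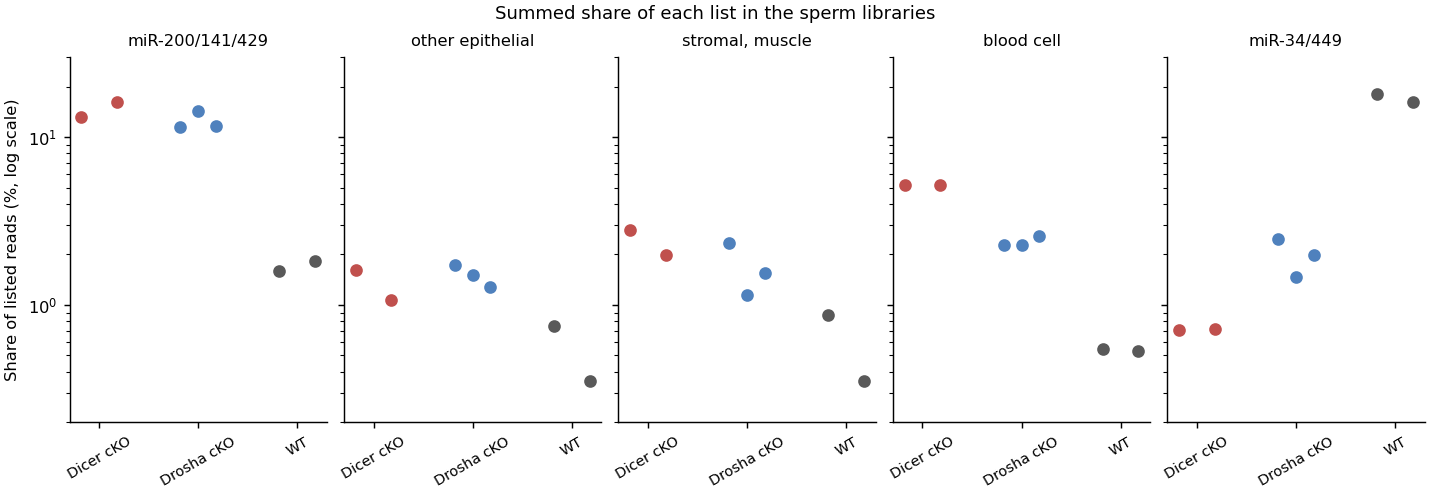
Summed share of listed reads (%, log axis) of the family and of 4 marker lists in each sperm library. The family and the other epithelial, stromal and blood cell lists are higher in every cKO library than in either WT library, and the germ cell list lies at 18.1% and 16.2% in WT sperm and at 2.48% or less in cKO sperm.

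The miRNAs whose level was most like that of the summed family over the 7 sperm libraries were found among 272 miRNAs with a mean of at least 100 CPM, by Pearson correlation of log2(CPM + 10). They were miR-221-3p (r = 0.992), miR-26b-5p (0.991), miR-148a-3p (0.990), miR-29b-3p (0.986), miR-222-3p (0.984) and miR-101a-3p (0.981), over 7 libraries that fall into WT and cKO groups and share their depth. miR-221-3p changed by 2.34 in Dicer cKO (SE 0.548, edgeR adjusted p = 0.00223) and 1.67 in Drosha cKO sperm (SE 0.511, edgeR adjusted p = 0.0117). miR-26b-5p, at 0.97 and 0.56, did not pass the test in either.

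In oocytes and 2PN embryos the family was almost undetected. The 2PN libraries from Dicer cKO, Drosha cKO and WT sperm held 0, 4 and 1 family reads, and the oocyte library 3. The shares of listed reads were 0% in the 2PN library from Dicer cKO sperm (0 of 2951 reads; 3 reads would be a share of 0.102%, and the exact upper bound is 0.125%), 0.0446% from Drosha cKO sperm (95% exact interval 0.0122 to 0.114), and 0.0308% from WT sperm (0.000781 to 0.172). The oocyte share was 0.0542% (0.0112 to 0.158). The upper bounds lie below the family's share in either WT sperm library, and all 4 intervals overlap, so no difference among the embryos and oocytes was detectable at this depth. Each library had no replicate, and intervals cover counting error only.

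The single reads were spread over the members. The oocyte library had 1 read each of miR-141-3p, miR-200a-3p and miR-200b-3p, and none of miR-200c-3p, the leading member in sperm. The 2PN library from Drosha cKO sperm had 3 reads of miR-200c-3p and 1 of miR-200b-3p, and that from WT sperm 1 of miR-200a-3p. No fold is given between these libraries, whose counts are at or near 3 reads. In the oocyte library the family's share was 29.3 times lower than in WT sperm replicate 1 (95% counting interval 9.998 to 142.2) and 33.6 times lower than in replicate 2 (11.5 to 163). Among the other epithelial miRNAs, miR-183-5p held 17.9%, 27.8% and 20.0% of listed reads in the 2PN libraries from Dicer cKO, Drosha cKO and WT sperm, and 25.5% in the oocyte library. miR-96-5p and miR-182-5p, from the same gene cluster, had 1 to 5 and 1 to 8 reads in these 4 libraries. miR-192-5p held 1.15%, 1.72% and 1.17% of listed reads in the 2PN libraries from Dicer cKO, Drosha cKO and WT sperm, and 1.36% in the oocyte library. In sperm its share was 0.0565% at most, in Drosha cKO replicate 3. miR-31-5p had 2 to 15 reads in the oocyte and 2PN libraries. miR-205-5p and miR-203-3p, which mark stratified epithelia, had 0 reads in all 4.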

How the data were processed

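Per the labels' protocols, total RNA was extracted with the mirVana kit once sperm heads were fully lysed. Per the submitters' processing notes, Bowtie and mm10 were used; versions and the rule for reads that match several miRNAs were not stated. The authors deposited raw read counts per feature and a table of RPM values. Each RPM value equals the count over 1 whole number per library, from 412523 to 3743577 (to within 0.00538 of a whole number), whose meaning is not stated.

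Counts of the 7 sperm libraries were fitted together in edgeR 4.0.16 (R 4.3.3), after TMM scaling and the default filter by group, with the two-sided quasi-likelihood test; the threshold was an adjusted p of 0.05. A standard error is the size of the log2 change over the root of the F statistic. The steps were run on counts simulated with the same spread for every feature, so that run gives no error rate for these data. Alternatives used DESeq2 1.42.0, limma 3.58.1 on log2 RPM, other scalings, other filters and fewer samples. Because TMM factors differ between libraries, a fitted log2 change is not the ratio of mean CPM. Replicates differed beyond sampling noise (chi-square per degree of freedom 5.74 to 42.0). Intervals are exact (Clopper-Pearson, 95%). Named miRNAs were the members, those sharing a seed, the 6 most like the family over sperm, and the 3 most abundant of each marker list; others named were chosen after their values were seen. The members and lists were chosen with earlier results of these data known. The reference genome at hand was of a different build, so no sequence was read from it.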

Additional observations from a re-analysis of the deposited data

How the results depend on the processing

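The log2 changes of single members kept their direction in every alternative run for Dicer cKO and for Drosha cKO against WT sperm; 16 and 51 calls were lost. Leaving out 1 replicate gave 4 to 6 members called in Dicer cKO sperm (7 with all libraries) and 1 to 8 in Drosha cKO sperm (8), the 1 without WT replicate 1; a lone sample left in a group is assumed to vary like the other groups. In Drosha cKO sperm 1 member was called with the authors' divisor, 1 without a low-count filter, 4 at 10 CPM in 2 libraries, 3 and 1 by limma with pseudocounts of 1 and 0.1, and 1 without Drosha cKO replicates 2 and 3. Over all features, limma at 0.1 called 65 for Dicer cKO (158 in edgeR) and 100 for Drosha cKO (185), and no filter left 112 for Drosha cKO. The log2 ratio of the summed family was 3.35 in RPM and 2.44 on TMM sizes for Dicer cKO (3.10 in CPM), and 2.00 and 1.95 for Drosha cKO (2.86). Between Dicer cKO and Drosha cKO sperm it was 1.36 in RPM (0.23 in CPM); 1 member was called on those 2 groups alone. Features called there (0) became 11 with library totals, 1 with the divisor, 1 without a filter, 4 at 10 CPM, 16 by DESeq2, 2 by limma at 1, 31 on the 2 groups alone, and 0 to 7 leaving out 1 replicate. Signs of single members turned in that comparison only. miR-200a-5p (−0.02) was 0.012 with DESeq2 size factors, 0.92 with the divisor, 0.82 without a filter, 0.78 at 10 CPM, 0.050 by DESeq2, 1.36 and 2.46 by limma, 0.03 on the 2 groups, 0.022 on miRNAs only and −0.40 to 0.62 leaving out 1 replicate. miR-200b-5p (−0.04) was 0.79 with the divisor, 0.87 without a filter, 0.82 at 10 CPM, 0.86 and 0.90 by limma, 0.46 without Drosha cKO replicates 2 and 3, and −0.30 to 0.45 leaving out 1 replicate. miR-429-3p was −0.074 with library totals, and miR-429-5p 1.28 without Drosha cKO replicates 2 and 3. The cause of these changes was not tested. Samples share only a replicate number. The deviations of same-numbered libraries from their group means, in log2 CPM, correlated at 0.181 to 0.312. With the replicate block 8, 7 and 0 members were called in the Dicer cKO, Drosha cKO and Dicer against Drosha comparisons. Features called were 175, 184 and 8 in the same order. In the last comparison miR-200a-5p was 0.45, and in Dicer cKO against WT sperm miR-429-5p was called (1.98, edgeR adjusted p = 0.0279). Depth limits the 5p arms and the oocyte and 2PN libraries, where 3 reads are a share of 0.0335% to 0.102%.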
